A study of Mus musculus with 12 samples.

Results

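The 9 genes described here encode proteins that reseal the muscle fibre membrane or are processed with it: the ferlins Dysf and Myof, the tripartite-motif protein gene Trim72, the giant scaffold genes Ahnak and Ahnak2, and the calpain genes Capn1, Capn2, Capn3 and Capns1. They were chosen by name, with earlier knockout-to-wild-type results of these same libraries known, and all 9 were found by exact symbol among the 21936 genes of the series. Their knockout-to-wild-type differences are therefore given as a description, without a test of their own. The series compared poly(A) RNA of muscle from mice labelled PTRF knockout with muscular dystrophy as disease state, and from WT mice labelled normal, all C57BL/6N and 3 months old. PTRF is the caveolar coat protein now called cavin 1, the product of Cavin1, and the labels name neither the allele nor the cells it covers, nor whether replicate numbers mark different animals, and p-values therefore measure only how far these samples scatter, possibly for technical reasons. Samples are labelled soleus or quadriceps, but each quadriceps file held the same values as the soleus file of the same genotype and number. The largest difference was 0 TPM, so the labels do not tell the muscle of origin. The data amount to 3 KO and 3 WT libraries.

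When a fibre membrane tears, calcium enters and triggers the fusion of vesicles with the wound. Dysferlin, the product of Dysf, is a calcium-binding protein with many C2 domains at the surface membrane and transverse tubules, and its loss causes limb-girdle muscular dystrophy and Miyoshi myopathy. The Trim72 product gathers vesicles at the wound together with dysferlin and caveolin 3, and cavin 1 has been described as an anchor for it at injured membrane. AHNAK binds dysferlin and the annexin A2 and S100A10 complex, and calpains, proteases activated by calcium, cut dysferlin and AHNAK.

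Expression is given in TPM, a length-corrected share of all transcripts in 1 library, and the read depth is unknown. Library totals ran from 843194 to 872482 TPM. Transcripts of the mitochondrial genome took 39.0 to 45.7% of the TPM in KO libraries, against 43.0 to 52.3% in WT libraries. Cavin1 checked the labels, at 0.284, 0.0905 and 0.0254 TPM in KO libraries, against 45.2, 39.96 and 42.2 TPM in WT libraries. It met the filter on low values described below through its WT libraries alone, so its difference is given without a test. Defining genes of skeletal muscle fibres were abundant in both genotypes, with 9 such genes summing to 41381 to 49677 TPM in KO libraries, against 38067 to 41940.5 TPM in WT libraries.

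The differences among the 9 genes were uneven. Ahnak2 stood 20.8-fold, Myof 4.32-fold, Ahnak 3.59-fold and Capn2 2.56-fold higher in KO than in WT by the ratio of means, while Capns1, Capn1 and Trim72 stood 1.88-fold, 1.65-fold and 1.53-fold higher. Dysf and Capn3 had overlapping groups. In the fit over all 11056 tested genes (limma on log2(TPM + 1), keeping genes that reached 1 TPM in 3 or more libraries, Benjamini-Hochberg adjusted p under 0.05), 7 of the 9 genes passed as higher in KO and 0 as lower. Of all tested genes 36.3% passed as higher, 2.92% as lower and 39.2% in either direction. The same 7 genes had every KO library above every WT library, which held for 48.7% of all tested genes.

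Nothing about the group of 9 is read from these counts, because the genes were named with this contrast in view. The scale of the libraries also matters, since the median log2 fold change of all tested genes was 0.33 on the deposited scale but -0.01 once trimmed-mean rescaling was applied, which aligns the bulk of genes between libraries. After that rescaling 5 of the 9 genes passed as higher (Myof, Ahnak, Ahnak2, Capn2 and Capns1) and 1 as lower (Capn3), beside 14.6% and 13.3% of all tested genes. Over the 9 genes the median log2 fold change was 0.91 on the deposited scale and 0.52 after rescaling.

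**Figure D1:**
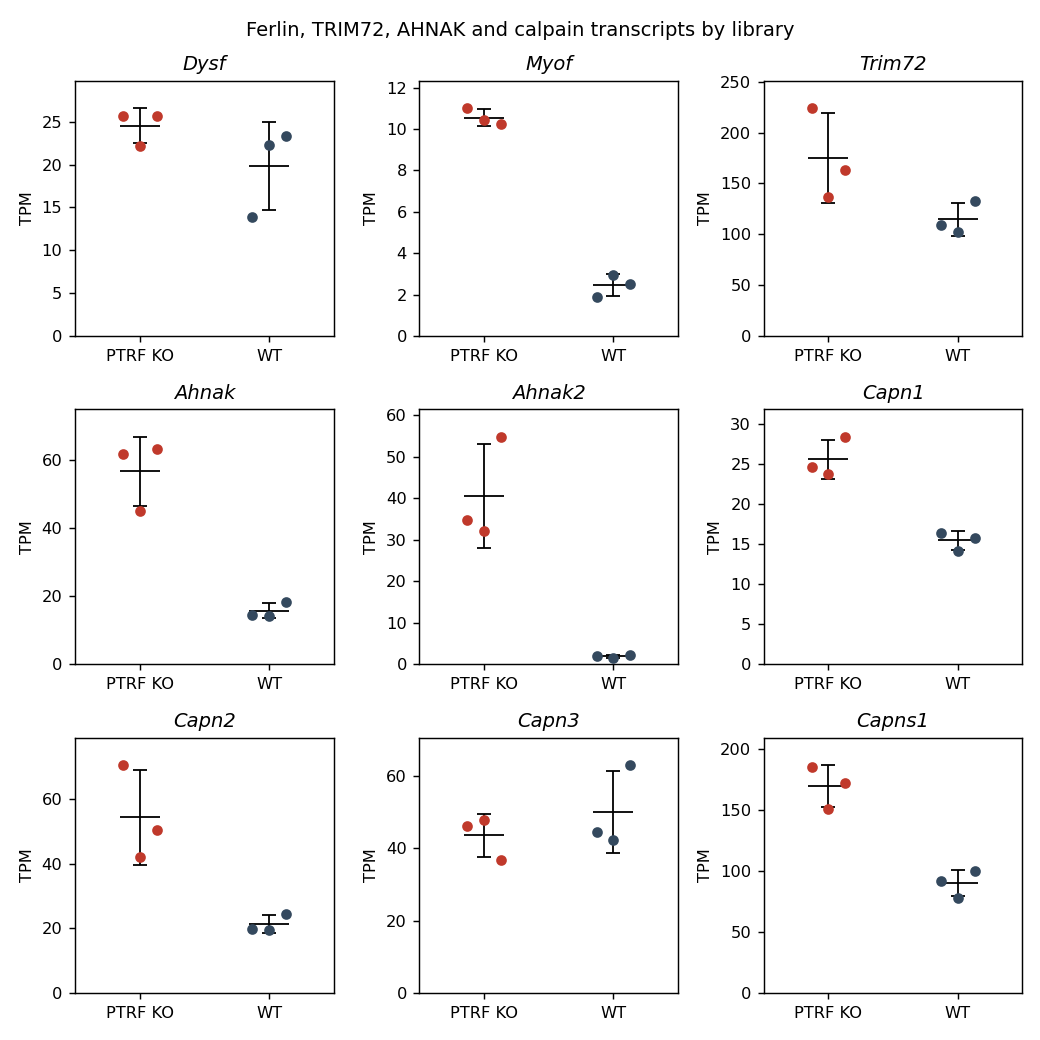
TPM of the 9 genes in each library, with the 3 PTRF KO libraries on the left of each panel and the 3 WT libraries on the right, in the order of library number. Points are libraries, and the black bar and whiskers are the mean and SD. Ahnak2 and Myof lie far apart between genotypes, while the groups overlap for Dysf and Capn3.

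Windows around a RefSeq transcription start are shown for the 4 genes with the largest ratios, and for Capn3, the gene with the lowest. Which starts were used in these libraries was not measured, so the windows mark annotated starts only. Each runs 5′ to 3′ on the strand of the gene, from 250 bases before to 50 after the RefSeq start in build GRCm38.p6. Capitals mark matches, on either strand, to 6 motifs searched: the E-box CAGCTG, the MCAT element CATTCC bound by TEAD factors, the AP-1 element TGANTCA, the GC box GGGCGG, the TATA box TATAAA and the CArG box of serum response factor.

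Ahnak2 (chr12:112795693-112795992, minus strand): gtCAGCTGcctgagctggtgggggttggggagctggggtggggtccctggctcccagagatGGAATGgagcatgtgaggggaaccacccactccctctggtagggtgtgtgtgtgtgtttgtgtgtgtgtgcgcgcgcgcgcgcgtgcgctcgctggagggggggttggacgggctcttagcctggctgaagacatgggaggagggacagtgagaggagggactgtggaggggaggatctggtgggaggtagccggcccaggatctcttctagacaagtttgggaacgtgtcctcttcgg
Myof (chr19:38043528-38043827, minus strand): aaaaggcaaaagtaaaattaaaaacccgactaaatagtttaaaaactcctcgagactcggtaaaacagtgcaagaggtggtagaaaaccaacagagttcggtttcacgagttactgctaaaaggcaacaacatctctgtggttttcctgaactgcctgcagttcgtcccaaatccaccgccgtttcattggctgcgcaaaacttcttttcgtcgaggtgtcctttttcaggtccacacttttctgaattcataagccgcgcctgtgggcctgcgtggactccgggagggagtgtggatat
Ahnak (chr19:8989034-8989333, plus strand): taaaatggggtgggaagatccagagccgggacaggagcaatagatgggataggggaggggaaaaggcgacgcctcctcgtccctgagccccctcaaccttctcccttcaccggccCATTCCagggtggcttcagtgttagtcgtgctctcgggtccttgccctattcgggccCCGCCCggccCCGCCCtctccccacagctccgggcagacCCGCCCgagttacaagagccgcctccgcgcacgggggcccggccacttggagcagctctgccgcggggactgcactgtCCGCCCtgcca
Capn2 (chr1:182517561-182517860, minus strand): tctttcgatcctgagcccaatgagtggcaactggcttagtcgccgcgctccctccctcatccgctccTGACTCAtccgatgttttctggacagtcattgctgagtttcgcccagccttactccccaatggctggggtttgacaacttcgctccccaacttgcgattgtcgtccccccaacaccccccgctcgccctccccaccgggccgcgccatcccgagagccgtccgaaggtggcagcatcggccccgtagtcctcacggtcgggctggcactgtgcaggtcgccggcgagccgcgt
Capn3 (chr2:120463343-120463642, plus strand): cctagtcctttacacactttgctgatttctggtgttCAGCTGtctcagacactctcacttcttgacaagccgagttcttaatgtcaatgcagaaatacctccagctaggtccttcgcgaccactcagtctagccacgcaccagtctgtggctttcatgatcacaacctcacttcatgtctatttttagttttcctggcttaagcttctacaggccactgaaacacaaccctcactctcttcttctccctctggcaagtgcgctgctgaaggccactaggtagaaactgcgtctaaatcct

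The Ahnak window held 4 GC boxes and an MCAT element beginning 135 bases upstream of the start. An MCAT element also stood 189 bases upstream in the Ahnak2 window, along with an E-box at 248 bases, and the Capn2 window had an AP-1 element 183 bases upstream. The Capn3 window shown held 1 E-box, 214 bases upstream. RefSeq gives Capn3 another start, whose window (chr2:120476659-120476958, plus strand) held 4 CpG dinucleotides and an E-box beginning 27 bases after that start. No listed motif occurred in the Myof window. Of 32851 windows of the same length over the genome, 14.7% held the MCAT element, 16.3% the E-box, 7.81% the AP-1 element, 35.7% a GC box, 13.6% the TATA box and 1.63% the CArG box. CpG dinucleotides numbered 27 in the Capn2 window and 22 in the Ahnak window, against 13 for Ahnak2, 15 for Myof, 6 for Capn3 and a median of 7 over all windows. A match describes the letters of the window, and a motif that is missing from it says nothing about the factor.

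Of the ferlins, Dysf overlapped between genotypes and Myof was higher in every KO library. Dysf (ENSMUSG00000033788, plus strand of chromosome 6 from 84008590 to 84211060 in GRCm38, a coding sequence of 6360 nt in 56 exons) stood at 25.7, 22.2 and 25.7 TPM in KO libraries 1, 2 and 3, against 13.9, 22.2 and 23.4 TPM in WT libraries 1, 2 and 3. The low value was WT library 1, and KO library 2 lay within the WT range. The log2 fold change of Dysf was 0.32 (SE 0.19), which lies at the median of all genes, and it was -0.05 (SE 0.17) after trimmed-mean rescaling and 0.10 without WT library 1. Dysf did not pass the fit over all genes on any of the scales tried.

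Myof (ENSMUSG00000048612, minus strand of chromosome 19 from 37899036 to 38043577) encodes myoferlin, the ferlin of myoblasts, endothelium and other dividing cells, which takes part in myoblast fusion. Its levels were 10.996, 10.4 and 10.2 TPM in KO libraries, against 1.87, 2.93 and 2.52 TPM in WT libraries. All KO libraries lay far above all WT libraries, and the KO values were close together. Its log2 fold change was 1.76 (SE 0.15), or 1.43 above the median of all genes, and 1.44 (SE 0.14) after rescaling. Within each library, where the scale cancels, the ratio of Myof to Dysf was 0.428, 0.470 and 0.398 in KO libraries, against 0.135, 0.132 and 0.108 in WT libraries, a 3.46-fold difference of the means. Dysf remained the more abundant of the pair in every library.

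Trim72 (ENSMUSG00000042828, plus strand of chromosome 7 from 128003949 to 128011033) was the most abundant of the 9 genes on average in both genotypes. It stood at 224, 137 and 164 TPM in KO libraries, against 109, 102 and 133 TPM in WT libraries. KO library 1 was the highest, and the lowest KO library lay just above the highest WT library. Trim72 had a log2 fold change of 0.58 (SE 0.19) on the deposited scale and 0.19 (SE 0.12) after trimmed-mean rescaling, where it was no longer past the threshold. It also missed the threshold without KO library 1 (0.39), KO library 3 (0.62), WT library 1 (0.55) or WT library 2 (0.51). The ratio of Trim72 to Dysf within a library averaged 7.09 ± 1.41 in KO and 6.04 ± 1.64 in WT (SD, n = 3 each), with overlapping groups.

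AHNAK and AHNAK2 are very large scaffold proteins made mostly of repeats, found at the surface membrane and costameres of fibres and in many other cell types. Ahnak (ENSMUSG00000069833, plus strand of chromosome 19 from 8989284 to 9076914) has a longest coding transcript of 18100 nt, of which a single exon makes up 17498 nt. It stood at 61.8, 45.0 and 63.2 TPM in KO libraries, against 14.6, 14.4 and 18.4 TPM in WT libraries, with KO library 2 the lowest of its group and still above every WT library. On the log2 scale Ahnak differed by 1.77 (SE 0.17), and 1.39 (SE 0.11) after rescaling.

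Ahnak2 (ENSMUSG00000072812, minus strand of chromosome 12 from 112772194 to 112802657) stood at 34.8, 32.1 and 54.8 TPM in KO libraries, against 2.03, 1.61 and 2.22 TPM in WT libraries. The WT libraries were close to each other and KO library 3 was the highest. Its log2 fold change of 3.78 (SE 0.20) ranked 3rd of the 11056 tested genes, and it was 3.46 (SE 0.19) after rescaling. It was 4.28 with a pseudocount of 0.1 and 2.68 with a pseudocount of 5, so the size on this scale depends on the pseudocount, while the ratio of the mean TPM values, 20.8, uses none. The ratio of Ahnak2 to Ahnak within a library was 0.563, 0.713 and 0.867 in KO libraries, against 0.139, 0.112 and 0.120 in WT libraries, a 5.78-fold difference of the means. The absolute value of that ratio rests on the transcript lengths used, which are not given. The longest Ahnak2 model in the annotation used here had 5216 coding nt, which is not a multiple of the codon length, so the model is incomplete, and the RefSeq start shown above lies inside the annotated gene.

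**Figure D2:**
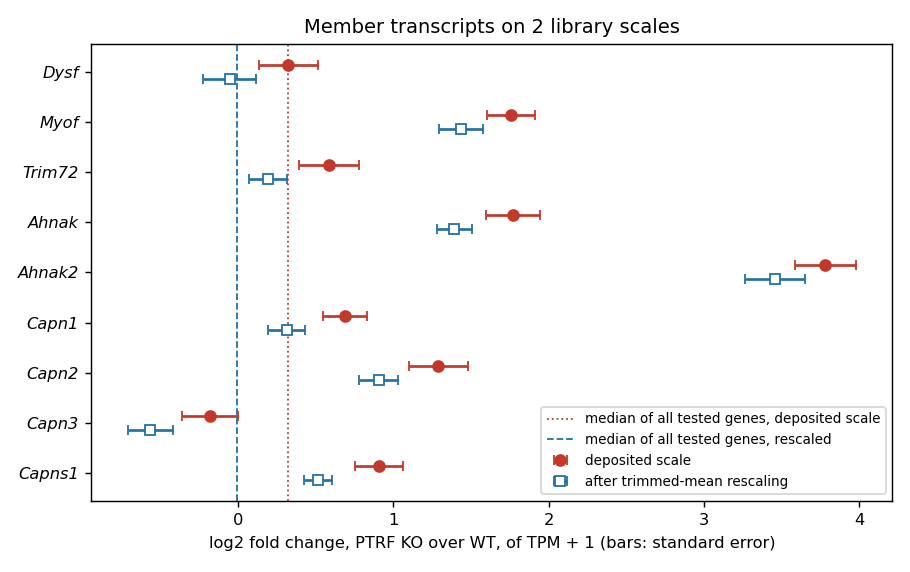
Log2 fold change, PTRF KO over WT, of TPM + 1 for the 9 genes, with standard errors. Filled circles are on the deposited scale and open squares follow trimmed-mean rescaling; the vertical lines are the medians of all 11056 tested genes, 0.33 and -0.01. Dysf lies near the median on both scales, Ahnak2 far above it and Capn3 below it.

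Among the calpains, the subunits of the ubiquitous enzymes were higher in KO and the muscle calpain was not. Capn1 (ENSMUSG00000024942, minus strand of chromosome 19 from 5988545 to 6015897) encodes the catalytic subunit of µ-calpain, named for its need of micromolar calcium. Its values were 24.6, 23.7 and 28.4 TPM in KO libraries, against 16.4, 14.2 and 15.8 TPM in WT libraries, without overlap. The log2 fold change was 0.69 (SE 0.14) on the deposited scale and 0.31 (SE 0.12) after trimmed-mean rescaling, where Capn1 was no longer past the threshold.

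Capn2 (ENSMUSG00000026509, minus strand of chromosome 1 from 182467260 to 182517608) encodes the catalytic subunit of m-calpain, which needs more calcium. It stood at 70.6, 42.1 and 50.6 TPM in KO libraries, against 19.9, 19.6 and 24.5 TPM in WT libraries, with KO library 1 the highest. The fitted log2 fold change of Capn2 was 1.29 (SE 0.19), and 0.91 (SE 0.13) after rescaling. The ratio of Capn2 to Capn1 was 2.87, 1.78 and 1.78 in KO libraries, against 1.21, 1.38 and 1.55 in WT libraries. The groups did not overlap, but KO libraries 2 and 3 lay close to WT library 3 and KO library 1 alone set the wide spread.

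Capns1 (ENSMUSG00000001794, minus strand of chromosome 7 from 30186936 to 30198811) encodes the small regulatory subunit that both enzymes share. It stood at 185, 151 and 172 TPM in KO libraries, against 91.9, 78.1 and 99.7 TPM in WT libraries, with wide separation. Capns1 had a log2 fold change of 0.91 (SE 0.15), and 0.52 (SE 0.09) after rescaling. Relative to the sum of Capn1 and Capn2, Capns1 averaged 2.14 ± 0.179 in KO and 2.44 ± 0.112 in WT (SD, n = 3 each). The KO and WT values of that ratio did not overlap, though 2.29 in KO library 2 and 2.32 in WT library 2 were nearly equal.

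Capn3 (ENSMUSG00000079110, plus strand of chromosome 2 from 120456019 to 120504913) encodes the calpain of skeletal muscle, which is bound to titin in the sarcomere and whose loss causes a limb-girdle muscular dystrophy. It stood at 46.3, 47.8 and 36.8 TPM in KO libraries, against 44.6, 42.3 and 63.0 TPM in WT libraries. The groups overlapped, with WT library 3 the highest. The log2 fold change was -0.18 (SE 0.18) on the deposited scale, which is 0.50 below the median of all genes, -0.57 (SE 0.14) after trimmed-mean rescaling, where Capn3 passed as lower, and -0.003 without WT library 3. Within each library, where the scale cancels, the ratio of Capn3 to the sum of Capn1 and Capn2 was lower in KO. That ratio was 0.486, 0.725 and 0.466 in KO libraries, against 1.23, 1.26 and 1.57 in WT libraries. Capn1 and Capn2 were themselves higher in KO. Other calpains are not in the ratio, such as Capn7 (means 19.3 TPM in KO and 18.2 TPM in WT). Capn3 made up 35.5 ± 5.67% of the sum of Capn1, Capn2 and Capn3 in KO and 57.3 ± 3.27% in WT (SD, n = 3 each). The gene shares 386 nt of exon with Ganc on the same strand, so reads from that stretch could have been counted for either gene, and Ganc stood at 12.3, 8.29 and 7.54 TPM in KO libraries, against 7.33, 5.61 and 7.32 TPM in WT libraries.

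**Figure D3:**
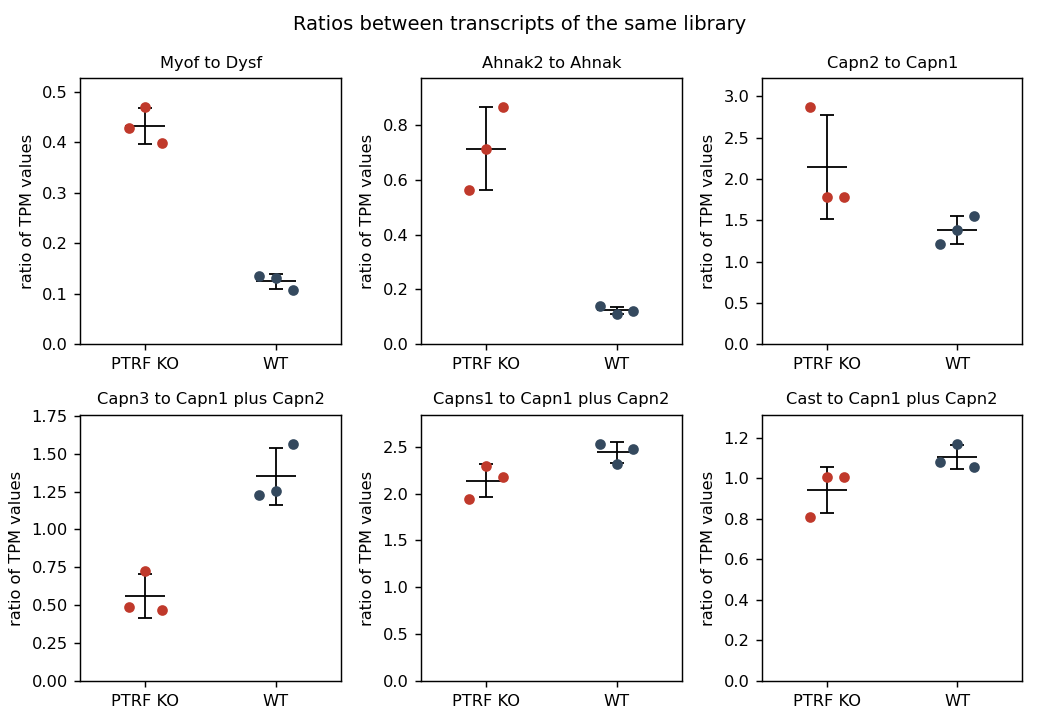
Ratios of TPM values between genes of the same library, with the 3 PTRF KO libraries on the left of each panel and the 3 WT libraries on the right, in the order of library number. Points are libraries, and the black bar and whiskers are the mean and SD. The ratios of Myof to Dysf and of Ahnak2 to Ahnak are higher in every KO library, and the ratio of Capn3 to the sum of Capn1 and Capn2 is lower in every KO library.

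The order of levels differed between genotypes. In KO libraries the means ran from Trim72 (175 TPM) and Capns1 (169 TPM), whose ranges overlapped, through Ahnak (56.7 TPM), Capn2 (54.5 TPM), Capn3 (43.6 TPM) and Ahnak2 (40.6 TPM), each overlapping its neighbour, to Capn1 (25.6 TPM) and Dysf (24.5 TPM), which overlapped, and Myof (10.5 TPM). In WT libraries they ran from Trim72 (115 TPM) through Capns1 (89.9 TPM) and Capn3 (49.98 TPM), each apart from the next, to Capn2 (21.3 TPM), Dysf (19.8 TPM), Ahnak (15.8 TPM) and Capn1 (15.4 TPM), whose neighbours overlapped, and last Myof (2.44 TPM) and Ahnak2 (1.95 TPM), which also overlapped. Ahnak2 was thus the least abundant of the 9 in WT libraries and sixth in KO libraries.

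The profiles nearest to those of single members were found by the root-mean-square distance of log2(TPM + 1) values over the 6 libraries, each gene centred on its own mean. With 3 libraries per genotype, this distance depends largely on the size of the KO-to-WT difference, and shared regulation was not tested. For Ahnak2 the nearest of the other tested genes were Ifi27l2a at 0.318, Ifit3 at 0.322 and Oasl2 at 0.380, which are interferon-induced genes, and none lay within 0.2. Their log2 fold changes were 3.51, 3.45 and 3.22, beside 3.78 for Ahnak2. For Myof the nearest were Ctla2a at 0.0979, Mrc1, a mannose receptor of macrophages, at 0.112 and Fcgr2b, an inhibitory Fc receptor, at 0.114. They were among 51 genes within 0.2, and their log2 fold changes were 1.69, 1.60 and 1.80, beside 1.76 for Myof. The nearest genes of Dysf (1700001K19Rik, Wdr3 and Rnpc3, at 0.0680 to 0.0737) and of Capn3 (Atp1b1, Wdr61 and Ppcs, at 0.0373 to 0.0507) were among 1027 and 1038 genes within 0.2.

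Other genes of membrane repair were read from lists chosen, like the 9 genes, with earlier results of these libraries known, so their counts and p-values, although adjusted over all 11056 genes, are not independent evidence of a direction. Of 58 such genes 48 were tested, and 30 passed as higher in KO (limma over all genes), beside 36.3% of all tested genes. The fit also put 2 genes, Cavin1 and Fer1l6, past the threshold as lower, beside 2.92% of all tested genes. Both met the filter through their WT libraries, where they were high. Their calls are therefore not read as results, and their values are described without a test. Cavin1 is also the gene that the labels name as knocked out. After trimmed-mean rescaling the counts were 18 higher and 4 lower, beside 14.6% and 13.3% of all tested genes. The same shares stand beside the counts of each list below. Among the 48 tested repair genes the log2 fold change had a median of 0.59, and 0.25 after rescaling, beside 0.33 and -0.01 over all genes. Of the remaining ferlins, Fer1l5 did not pass (log2 fold change -0.03, adjusted p = 0.848). Fer1l6 stood at 0.561, 1.73 and 0.700 TPM in KO libraries, against 2.14, 1.75 and 1.92 TPM in WT libraries, and KO library 2 nearly reached the lowest WT library. It was no longer called with no filter, or without KO library 1, KO library 3, WT library 1 or WT library 3. Otof was under 1 TPM in every library and Fer1l4 was at 0 in all of them, listed or set to 0 where unlisted.

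Of the other calpains and their inhibitor, 4 of 12 genes were tested and 2 passed as higher. Cast, which encodes calpastatin, the inhibitor of µ- and m-calpain, rose to 74.2 ± 7.09 TPM in KO, against 40.4 ± 1.86 TPM in WT (log2 fold change 0.86, SE 0.14, adjusted p = 0.000811), and also passed after rescaling (0.47). Its ratio to the sum of Capn1 and Capn2 was 0.940 ± 0.113 in KO and 1.10 ± 0.0596 in WT (SD, n = 3 each). Capn10 passed at 2.53 ± 0.784 TPM in KO, against 1.46 ± 0.380 TPM in WT (limma adjusted p = 0.0414). It passed on no other scale tried: trimmed-mean rescaling (adjusted p = 0.316), quantile normalization (0.702) or TPM of nuclear genes alone (0.12). Nor did it pass without KO library 3 (0.173), WT library 1 (0.0701) or WT library 2 (0.155), or with no filter (0.113). Over all alternatives its adjusted p ran from 0.0159 to 0.702. Capn7 and Capn15 did not pass, with log2 fold changes of 0.08 and 0.30.

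The annexins and S100 proteins of membrane wounds, among them partners of AHNAK, were higher along with the AHNAK genes. All 9 passed as higher in KO, where 36.3% of all tested genes did, and 8 of 9 did after rescaling, where 14.6% did. The log2 fold changes of these annexin and S100 genes had a median of 1.57. Anxa2 and S100a10, whose products form the complex that binds AHNAK, rose by 2.05 (SE 0.18, adjusted p = 1.01e-05) and 2.13 (SE 0.20, adjusted p = 2.11e-05) on the log2 scale. Anxa1, an annexin recruited to membrane wounds, rose by 1.81 (SE 0.14, adjusted p = 6.66e-06). The ratio of Ahnak to S100a10 was 0.380 ± 0.0275 in KO and 0.481 ± 0.0792 in WT (SD, n = 3 each), and the groups overlapped.

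Of 10 caveola genes 8 were higher (6 after rescaling) and Cavin1 was lower. Cavin3, a further cavin, rose by 1.70 (SE 0.15, adjusted p = 1.06e-05) and Ehd2, an ATPase of the caveolar neck, by 1.23 (SE 0.14, adjusted p = 7.79e-05). Of 7 partners of calpain 3 and dysferlin in the sarcomere and costamere, 6 were higher and 3 after rescaling. Flnc, the muscle filamin, stood at 359 ± 83.8 TPM in KO and 119 ± 11.6 TPM in WT (adjusted p = 0.0001), Ankrd2 rose by 1.45 (SE 0.26, adjusted p = 0.00132) and Myh9, a non-muscle myosin, by 1.05 (SE 0.14, adjusted p = 0.000183).

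Genes of vesicle fusion and membrane scission had median log2 fold changes of 0.39 and 0.37, beside 0.33 over all genes. Of 8 ESCRT genes, which pinch off damaged membrane, 3 passed as higher on the deposited scale: Pdcd6ip (log2 fold change 0.67, adjusted p = 0.00694), Vps4b (0.59, adjusted p = 0.0128) and Chmp4b (0.42, adjusted p = 0.0366). After rescaling 0 were higher and 1, Pdcd6, was lower (-0.77, limma adjusted p = 0.00328). Pdcd6 had not passed on the deposited scale (-0.39). Of 8 genes of lysosome exocytosis and fusion 2 passed, the syntaxin gene Stx4a (0.58, adjusted p = 0.0153) and the lysosomal membrane gene Lamp1 (0.46, adjusted p = 0.036). In this list 0 were higher after rescaling and 1, Smpd1, was lower (-0.52, limma adjusted p = 0.00335), which had not passed on the deposited scale (-0.15). None of the 5 genes called higher on the deposited scale passed after rescaling. Calls on the deposited scale were lost without WT library 1 or 2 for Vps4b (adjusted p up to 0.061), without KO library 1 or WT library 2 for Stx4a (up to 0.0799), without KO library 1, KO library 3, WT library 1 or WT library 2 for Chmp4b (up to 0.143) and Lamp1 (up to 0.15), with no filter for Lamp1 (0.0527), and with the replicate number as a block for Chmp4b (0.0621) and Lamp1 (0.0515). The difference between these lists and the annexins was not tested.

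**Figure D4:**
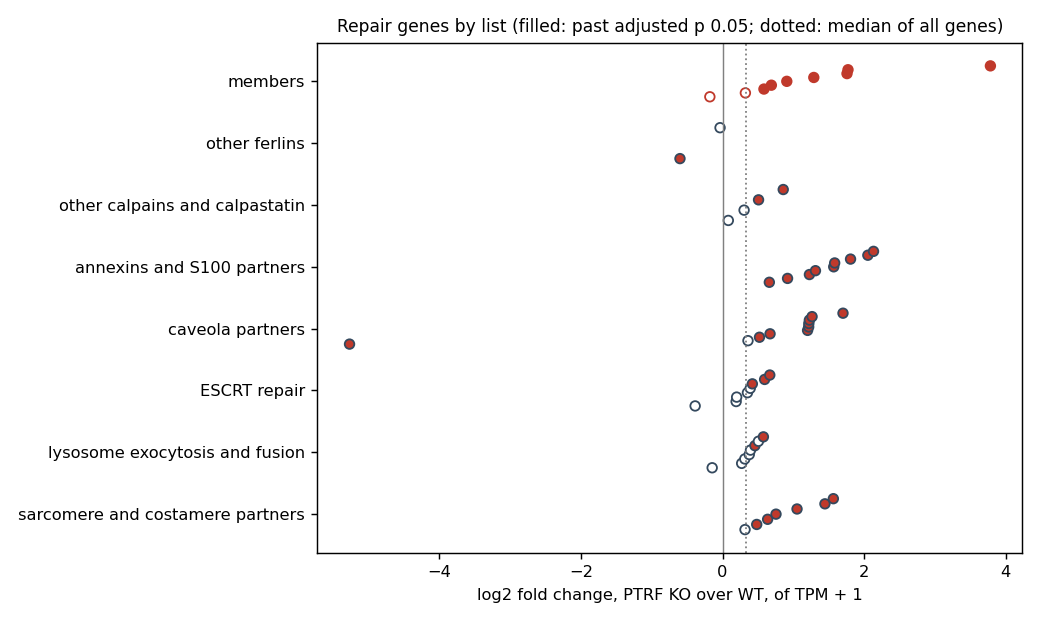
Log2 fold change, PTRF KO over WT, of TPM + 1 for the 9 genes (top row) and the 48 tested repair genes by list. Filled points passed an adjusted p of 0.05 in the fit over all genes and open points did not. The solid line is at 0 and the dotted line at 0.33, the median of all tested genes. All annexin and S100 genes are filled and to the right, Cavin1 lies at -5.27, and most ESCRT and lysosome genes lie near the dotted line.

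Several of the 9 genes are also expressed outside muscle fibres, and markers of other cells differed between the same libraries. Of all tested genes 36.3% passed as higher and 2.92% as lower. All 8 macrophage genes passed as higher, with a summed level of 97.2 to 133 TPM in KO libraries, against 15.6 to 19.4 TPM in WT libraries. Adgre1 was tested only because of its KO values. All 6 fibroblast genes passed as higher, summing to 488 to 626 TPM in KO libraries, against 207 to 211 TPM in WT libraries, and of 6 endothelial genes 5 were higher and Kdr lower, summing to 155 to 172 TPM in KO libraries, against 76.9 to 84.4 TPM in WT libraries. None of these 3 lists had a gene at 0 in any library. Of 9 genes of satellite cells and regenerating fibres 5 were tested and 4 were higher. That list summed to 27.7 to 48.5 TPM in KO libraries, against 9.51 to 15.4 TPM in WT libraries. The satellite cell gene Myf5 did not pass, with a mean of 1.19 TPM in both genotypes (log2 fold change -0.002). Pax7, another satellite cell gene, was not tested, with means of 0.558 TPM in KO and 0.409 TPM in WT. Mymx, a fusion peptide gene of that list, was at 0 in WT libraries 2 and 3, where genes that a file did not list were set to 0.

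Markers of smooth muscle and pericytes (1 of 5 higher, 176 to 183 TPM in KO libraries, against 147 to 155 TPM in WT libraries), Schwann cells (0 of 3 tested, 16.0 to 19.8 TPM in KO libraries, against 20.5 to 21.6 TPM in WT libraries) and adipocytes (0 of 3 tested, 4.32 to 17.9 TPM in KO libraries, against 6.08 to 12.4 TPM in WT libraries) gave no other call on the deposited scale. Of the 9 fibre genes Myh4, a fast myosin, was the only one to pass, at 238, 580.1 and 346 TPM in KO libraries, against 6.43, 194 and 4.21 TPM in WT libraries, with WT library 2 far above the other WT libraries. Myh7, the slow myosin, stood at 3186, 2196 and 3291 TPM in KO libraries, against 2175, 1702 and 2703 TPM in WT libraries. Which muscle these myosin levels belong to was not tested. After trimmed-mean rescaling Myh4 did not pass (log2 fold change 3.83, limma adjusted p = 0.0508) and Tnnt1, a slow troponin T gene, passed as lower (-0.44, adjusted p = 0.0438). On that scale 14.6% of all tested genes passed as higher and 13.3% as lower. Rescaled calls in the other marker lists were 8 of 8 macrophage, 6 of 6 fibroblast, 4 of 6 endothelial and 3 of 5 tested satellite cell and regenerating fibre genes higher, Kdr lower, 2 of 3 tested Schwann cell genes lower, and 0 for smooth muscle and adipocytes. The part of these cells in the values of Myof, Ahnak, Ahnak2 and Capn2 was not tested, and in whole-muscle RNA more cells of a type and more RNA per cell cannot be told apart.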

How the data were processed

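Poly(A) RNA of muscle from 3 KO and 3 WT libraries was analysed, after files with repeated values were counted once. The deposited values were taken as TPM because they are fractional and have similar totals; neither labels nor headers give a unit. Per the submitters' processing notes, GRCm38 and mm10 were the builds, and STAR 2.5.3a and kallisto 0.43.0 the tools, with no step given for any of them. Per the labels' protocols, TRIzol RNA went into NEBNext Ultra libraries. Strand of counting is not given in the sources used here, and antisense genes overlap Dysf, Trim72, Capn1, Capn2 and Capns1. Since TPM keeps no read depth, no counting interval is given.

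Genes that a file did not list were set to 0. Positions came from GENCODE M21 (99.8% of identifiers found) and sequences from RefSeq, where all 9 genes matched by symbol. The members and lists were chosen with earlier results of these data known. Genes reaching 1 TPM in 3 or more libraries (11056) entered a linear model of log2(TPM + 1), in which limma 3.58.1 (R 4.3.3) let the prior variance follow mean expression, and p-values were adjusted over all of them by Benjamini-Hochberg, with calls at 0.05; this scale understates changes of low genes. On simulated data with 200 of 11056 genes changed, the procedure recovered 77% of log2 changes of 1 and 99% of changes of 2, with 10 false calls. The simulation had no shift of library scale, so it says nothing about which scale is right. Its changed genes were not drawn from those lowest in WT, so recovery among low genes was not measured. It also changed a far smaller share of genes than was called in the data. Genes named were the 9, the 3 called genes of smallest adjusted p in each list, and the 3 nearest profiles of Dysf, Myof, Ahnak2 and Capn3. Ganc, Otof, Fer1l4, Fer1l5, Capn7, Capn15, Pdcd6, Smpd1, Adgre1, Kdr, Myf5, Pax7, Mymx, Myh4, Myh7 and Tnnt1 were added after their values were seen. Ratios within a library are descriptions. Plots used matplotlib 3.10.9.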

Additional observations from a re-analysis of the deposited data

How the results depend on the processing

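The fit was repeated without the trend, on 3 other scales (one of them TPM of nuclear genes alone), with the filter dropped or raised to 10 TPM, with a pseudocount of 0.1 or 5, with the replicate block, and with each library left out. Genes called higher numbered 4016 on the deposited scale, 1373 after quantile normalization, 1615 after trimmed-mean rescaling, 2675 on the nuclear-only scale and 1616 with the 10 TPM filter, and genes called lower numbered 323, and 1450, 1473 and 758 on the 3 other scales. The share of calls that were higher was 92.6% on the deposited scale, 48.6% after quantile normalization, 52.3% after trimmed-mean rescaling and 77.9% on the nuclear-only scale. Leaving out 1 library gave 2379 (without KO library 1) to 4150 genes higher, with 2504 without KO library 3 and 2535 without WT library 2, and 219 to 346 lower. Of the repair genes outside the 9, 30 were higher, and 18 after trimmed-mean rescaling. The 2 lower ones became 5 after quantile normalization, 4 after trimmed-mean rescaling and on the nuclear-only scale, 1 with no filter and with the 10 TPM filter, and 0 to 2 with a library left out. Cavin1 did not meet the filter and was not tested when any WT library was left out, so the counts without a WT library turn on Fer1l6. Because both genes met the filter through their WT libraries, how long their calls held is not read as a result. No member was called lower except Capn3 after trimmed-mean rescaling (1 gene).

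Myof, Ahnak, Ahnak2, Capn2 and Capns1 passed as higher under all 15 alternatives. Capn1 did not after quantile normalization or trimmed-mean rescaling. Trim72 lost its call in 8, and its log2 fold change ran from 0.19 to 0.74. Dysf turned only after trimmed-mean rescaling (-0.054), and Capn3 was below 0 in all 15. Deviations from the genotype mean correlated at 0.03, -0.01 and 0.04 between KO and WT libraries of numbers 1, 2 and 3. Between unlike numbers the correlations ran from -0.13 to 0.098. With 3 libraries per genotype these values cannot exclude a pairing by number. The replicate block called 4047 genes higher and 326 lower. The block ended the calls of Chmp4b and Lamp1 among the named repair genes and no other. Each genotype has only 3 libraries, and without read depth the precision of low genes such as Ahnak2 and Myof in WT libraries is unknown.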
